A study of Homo sapiens with 6 samples.

Results

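The genes of the cytosolic and mitochondrial ribosomal proteins were compared between H69 and H69M, with 3 arrays of each line. H69 is an established human small cell lung cancer line of the classic neuroendocrine type that grows as floating aggregates. H69M is labelled as a small cell lung cancer line too, and the labels give neither its origin nor a treatment, so the groups differ only by the name of the line. The genes were taken by symbol: RPL or RPS plus a number (RPS6 kinases excepted), RPLP0 to RPLP2, RPSA, and MRPL or MRPS plus a number. This gave 162 of the 18404 genes measured by probe sets with 1 symbol, 88 with cytosolic and 74 with mitochondrial symbols. The cytosolic symbols held 58 core genes, 36 of the large and 22 of the small subunit, with 9 paralogs, 19 pseudogenes and 2 genes whose products are not ribosomal proteins (RPS19BP1 and RPL34-DT). The mitochondrial symbols held 48 large-subunit genes, 25 small-subunit genes and 1 pseudogene (MRPS31P5). A further 25 cytosolic and 4 mitochondrial symbols stood only on probe sets that list several genes, and they were not counted. Levels of the Y-linked members are not given.

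The cytosolic ribosome reads nuclear mRNAs, and its protein genes are among the most uniformly transcribed housekeeping genes. Their transcripts begin with a terminal oligopyrimidine tract (TOP), a run of C and T at the start that places translation under control of the mTOR kinase. The mitochondrial ribosome is a separate machine whose proteins are encoded in the nucleus and imported. It reads only the mRNAs of the mitochondrial genome, which code for subunits of the respiratory chain.

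The start sites of 9 genes among those with the largest changes are shown because the gene sets differ there in sequence. Each stretch holds the 40 bases before the RefSeq start and the 20 bases from it (GRCh38.p14), 60 bases in all. It is read along the strand of its gene. Capitals mark CTTTC or CTTCC on that strand within 20 bases of the start, and CCGGAAG, an ETS-type motif, on either strand. CTTCC overlaps the reverse complement of CCGGAAG, so some capitals belong to both.
RPS27 (chr1:153990722-153990781, plus strand): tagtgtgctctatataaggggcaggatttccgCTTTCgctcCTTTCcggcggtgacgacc
RPL26 (chr17:8383174-8383233, minus strand): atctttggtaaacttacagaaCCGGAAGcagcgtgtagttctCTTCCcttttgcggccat
RPS23 (chr5:82278335-82278394, minus strand): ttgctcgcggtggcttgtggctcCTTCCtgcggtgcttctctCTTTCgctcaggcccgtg
RPL17 (chr18:49492446-49492505, minus strand): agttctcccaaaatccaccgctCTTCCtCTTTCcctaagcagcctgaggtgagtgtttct
MRPL24 (chr1:156741069-156741128, minus strand): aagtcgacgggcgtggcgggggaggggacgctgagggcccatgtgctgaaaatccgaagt
MRPL43 (chr10:100987478-100987537, minus strand): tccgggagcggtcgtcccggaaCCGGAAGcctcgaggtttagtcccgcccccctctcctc
MRPL41 (chr9:137551839-137551898, plus strand): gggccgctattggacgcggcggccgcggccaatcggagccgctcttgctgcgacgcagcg
MRPS18B (chr6:30617800-30617859, plus strand): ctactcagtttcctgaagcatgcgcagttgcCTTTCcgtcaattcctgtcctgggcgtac
MRPS34 (chr16:1773115-1773174, minus strand): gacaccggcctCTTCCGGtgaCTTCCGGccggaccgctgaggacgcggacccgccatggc

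CTTTC or CTTCC lay within 20 bases of the start in 33 of 49 core cytosolic promoters (67.3%) with a RefSeq entry, in 18 of 66 mitochondrial ones (27.3%) and in 3942 of 27305 promoters overall. CCGGAAG, searched on both strands of the 300 bases from 250 before to 50 after the start, was found in 34.7% of core, 42.4% of mitochondrial and 10.7% of all promoters. The extended YY1 motif, searched in the same way, was found in 1 core promoter, in 12 mitochondrial promoters (18.2%) and in 1.28% of all promoters. The palindromic NRF1 motif was found in 1 promoter of each set and in 1.36% of all. Genes that rose (RPS27, RPL26) and genes that fell (RPS23, RPL17) both held the pyrimidine letters, and the median log2 fold change was 0.07 over the 33 core genes with them and 0.01 over the 16 without. These are letter matches, not mapped sites.

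Ribosomal protein genes of both kinds differed little between H69M and H69, in lines that differed in many other genes. Tested with limma, 44 of the 162 (27.2%) passed a Benjamini-Hochberg adjusted p of 0.05 over all genes, against 44.2% of the 18404 genes. Of the 88 cytosolic symbols 12 were higher and 9 lower in H69M, and of the 74 mitochondrial symbols 13 were higher and 10 lower, where 21.0% of all genes were higher and 23.2% lower. None reached a 2-fold difference in either direction, a size that 1526 of all genes reached, and 2 (RPS6P6 and MRPL41) reached 1.5-fold, against 3104 of all genes (16.9%). Of the 118 members that did not pass, 117 had a 95% confidence interval within 0.5 of 0 on the log2 scale and 68 within 0.25. Most other genes that did not pass also met the wider bound: of 10264 in all, 9672 lay within 0.5 and 4145 within 0.25. The exception among the members was RPS29, a small-subunit protein, with a difference of -0.34 and an interval from -0.67 to -0.02. Its probe set was dim, at signal percentile 25.6. The lines overlapped there, at 5.71, 5.57 and 6.10 in H69 and 5.38, 5.61 and 5.35 in H69M.

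Core cytosolic genes sat on bright probe sets, with a median signal percentile of 97.9, and mitochondrial genes at 80.3. Signal depends on the probes as well as on the RNA, so these percentiles describe brightness and not abundance between genes. Among the 1774 other genes in the brightest 10%, 52.9% passed the threshold and the median absolute log2 fold change was 0.20. It was 0.11 in the 58 core genes, of which 13 passed (22.4%), and 0.12 in the 74 mitochondrial genes, of which 23 passed (31.1%). The median standard error was 0.06 for those bright genes and for the core genes, so the precision of these 2 groups was alike. Mitochondrial genes were dimmer, with 20 of 74 in the brightest 10%. Over all genes at or above the median signal, 56.7% passed and the median absolute log2 fold change was 0.24. The median standard error was 0.07 there and in the mitochondrial genes. Whether bright signals were compressed was not tested.

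**Figure D1:**
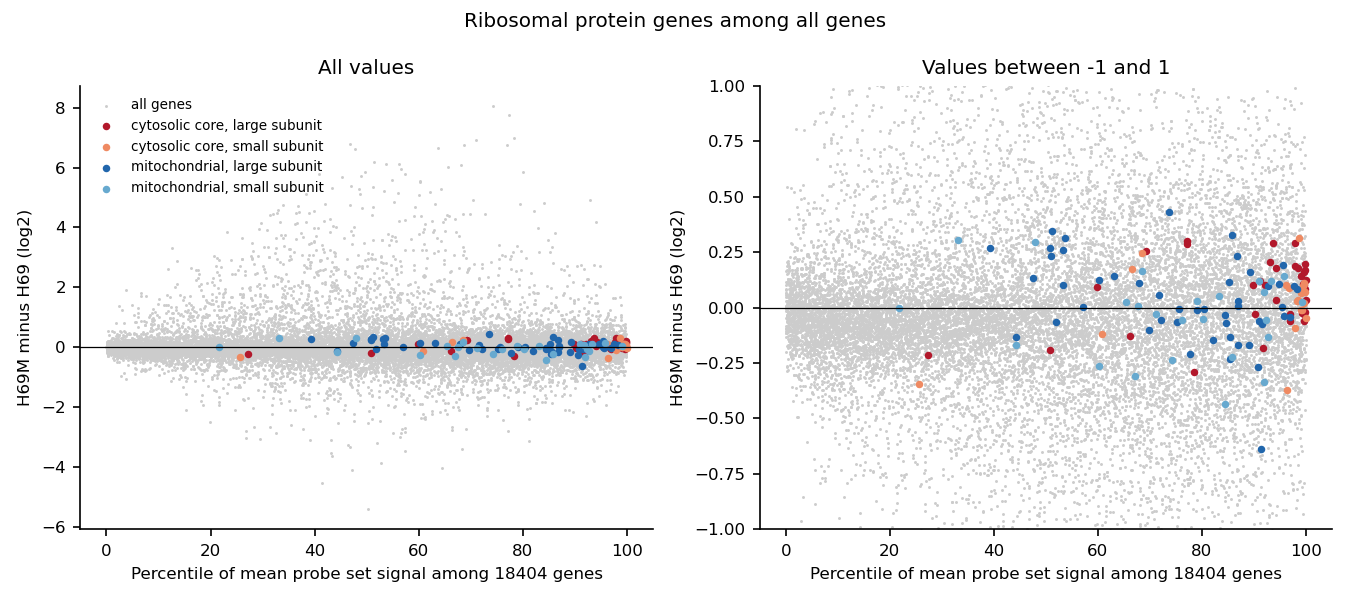
Log2 difference between H69M and H69 (y axis) against the percentile of the mean probe set signal (x axis), over the whole range (left) and between -1 and 1 (right). Grey points are all 18404 genes and coloured points the core cytosolic and mitochondrial ribosomal protein genes, which lie in a band within -0.64 and 0.43 while other genes reach beyond -5 and 8.

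The 6 arrays separated by line across all genes, with correlations of 0.995 to 0.998 within a line and 0.938 to 0.950 between lines. Of 9 neuroendocrine markers measured 7 were lower in H69M and 0 higher, with array medians of 10.20 to 10.25 in H69 and 9.51 to 9.76 in H69M. All 8 fibroblast markers were higher, with array medians of 5.67 to 5.90 in H69 and 8.56 to 9.16 in H69M. Of 5 leukocyte markers 3 were lower and 1 higher, of 4 endothelial markers 1 was higher, and of 2 erythroid markers 0 passed the limma test, adjusted or at an unadjusted p under 0.05. The part of these differences in the ribosomal results was not tested, and in bulk RNA fewer cells of a type and less RNA per cell cannot be told apart.

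The balance of rises and falls in the ribosomal sets depended on how the arrays were scaled. As deposited, the array medians over named genes were 7.09 to 7.13 in H69 and 7.19 to 7.23 in H69M. The 58 core cytosolic genes gave 10 rises and 3 falls as deposited, 4 and 10 with each array centred on that median, 6 and 6 after another quantile normalization, and 15 and 3 with each array centred over all probe sets. The 74 mitochondrial genes gave 13 rises and 10 falls as deposited, and under the same settings 6 and 18, 7 and 14, and 15 and 8. Among all genes the counts were 3866 and 4274 as deposited, 3110 and 6827 after centring on named genes, 3584 and 5478 after quantile normalization, and 4229 and 3884 after centring over all probe sets. No direction for either set as a whole is therefore given.

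A difference between the sets on the same array does not depend on such centring, but quantile normalization can change it. The median log2 fold changes were 0.0822 (core cytosolic) and 0.0017 (mitochondrial) as deposited. After another quantile normalization they were 0.0152 and -0.0175 and lay closer together. The array values below are as deposited. For each array the deviation of every gene from its own mean over the 6 arrays was taken, and the median over mitochondrial genes was subtracted from that over core cytosolic genes. This difference was -0.029, -0.041 and -0.029 on the 3 H69 arrays and 0.051, 0.016 and 0.012 on the 3 H69M arrays. The H69M arrays all lay above the H69 arrays, and the means differed by 0.059 (SD 0.007 and 0.021, n = 3 each). Taken as plain set medians of the log2 signal, core minus mitochondrial was 2.10, 2.23 and 2.12 in H69 and 2.34, 2.35 and 2.20 in H69M, and there the lines overlapped. No test was made on it, since the sets were chosen with results of these data known. H69 replicate 2 was the highest H69 array for 44 of 58 core genes (75.9%) and 52 of 74 mitochondrial genes (70.3%), against 42.6% of all genes. Without it, 11 core genes were higher and 4 lower. The count of higher core genes, 10 with all arrays, was 4 without H69 replicate 1, 5 without H69M replicate 2 and 6 without H69 replicate 3.

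**Figure D2:**
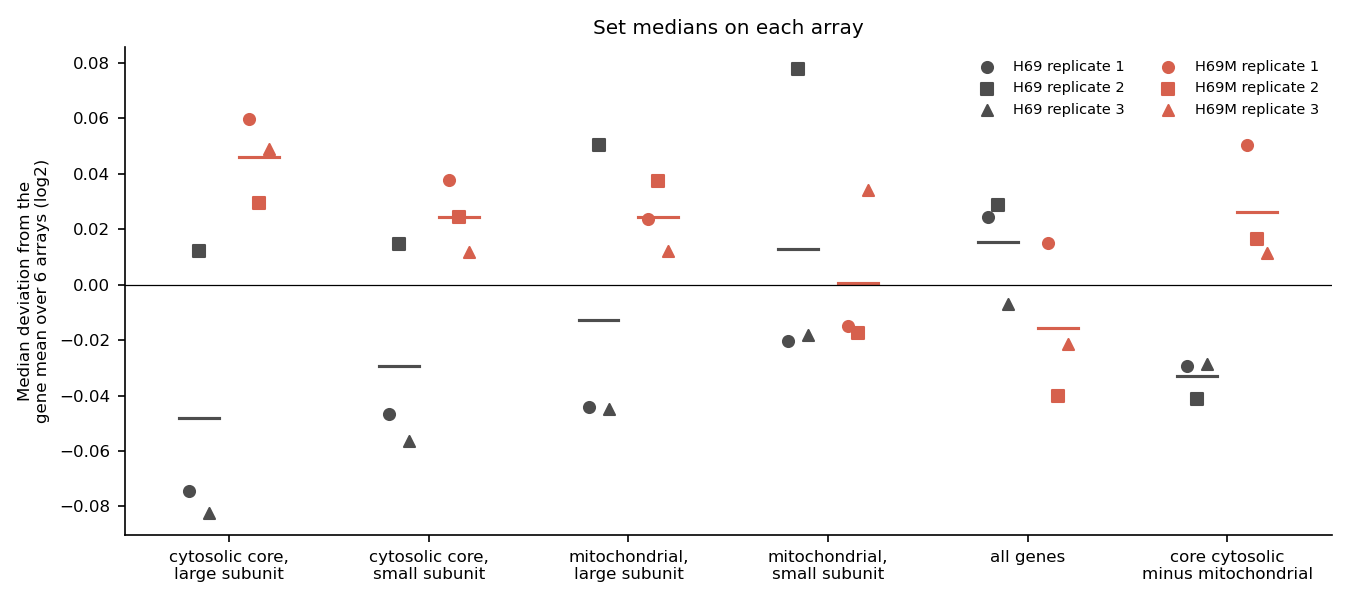
Median deviation of each gene set from the gene means over 6 arrays (y axis, log2), with 1 point per array and a bar at the mean of 3 arrays, grey for H69 and red for H69M. In the last column, core cytosolic minus mitochondrial, the H69M arrays lie at 0.012 to 0.051 and the H69 arrays at -0.041 to -0.029, while H69 replicate 2 stands above the other H69 arrays in all 4 subunit columns.

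Within the large cytosolic subunit, 8 of 36 core genes rose (22.2%, against 21.0% of all genes) and 1 fell (2.78%, against 23.2%) as deposited. RPL26, a protein at the polypeptide exit tunnel, stood at 8.54, 8.72 and 8.69 in H69 and 8.99, 8.99 and 8.87 in H69M (log2 signal). The groups did not overlap, and the difference was 0.30 ± 0.072 (SE; limma, Benjamini-Hochberg adjusted p = 0.0107). RPL11, which with RPL5 and a small rRNA forms the particle that can bind MDM2, stood at 10.11, 10.22 and 10.13 in H69 and 10.47, 10.42 and 10.44 in H69M, a rise of 0.29 ± 0.058 (limma adjusted p = 0.00427). Its partner RPL5 read 12.49, 12.57 and 12.56 against 12.74, 12.67 and 12.71, a rise of 0.17 (limma adjusted p = 0.0422) that missed the threshold under 11 of the alternative settings, at adjusted p of 0.0647 to 0.551. RPL23, which can also bind MDM2, rose by 0.29 (8.60, 8.77 and 8.64 in H69, 8.99, 8.95 and 8.92 in H69M). RPL34 rose by 0.29, a call lost under 6 of the alternatives, and RPL24, RPL35A and RPL30 rose by 0.20, 0.20 and 0.16. Of the 12 nearest measured genes around RPL35A on chromosome 3, 6 were higher and 1 lower, with a median of 0.22.

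RPL17, a protein that lines the rim of the exit tunnel, was the large-subunit gene that fell. It stood at 9.01, 9.06 and 9.01 in H69 and 8.76, 8.80 and 8.65 in H69M, all below H69, a fall of 0.29 on the log2 scale (SE 0.061, limma Benjamini-Hochberg adjusted p = 0.00541). Its genomic surroundings on chromosome 18 fell as well: of the 20 nearest measured genes 15 were lower and 1 higher, with a median of -0.45. When probe sets that list several genes were admitted, a brighter one shared with RPL17-C18orf32 replaced it, at -0.13 (limma adjusted p = 0.0889). The acidic stalk proteins RPLP1 and RPLP2, which recruit elongation factors, both differed by -0.03, with intervals from -0.18 to 0.12 and from -0.20 to 0.15.

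In the small cytosolic subunit, 2 of 22 core genes rose and 2 fell as deposited (9.09% each, against 21.0% and 23.2% of all genes). RPS23, a protein of the decoding centre, read 10.98 on each H69 array and 10.55, 10.65 and 10.62 in H69M. It fell by 0.37 (SE 0.055, limma Benjamini-Hochberg adjusted p = 0.000918), and its neighbours on chromosome 5 had a median of -0.02, with 8 of 20 higher and 7 lower. RPS27, a zinc-finger protein of the small subunit, rose by 0.31 ± 0.064 (11.43, 11.46 and 11.29 in H69, 11.72, 11.70 and 11.71 in H69M, limma adjusted p = 0.00476). RPS24 rose by 0.25. RPS6, the subunit protein phosphorylated by S6 kinase, lay between 11.79 and 11.85 on all 6 arrays and differed by -0.01, with an interval from -0.13 to 0.11.

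**Figure D3:**
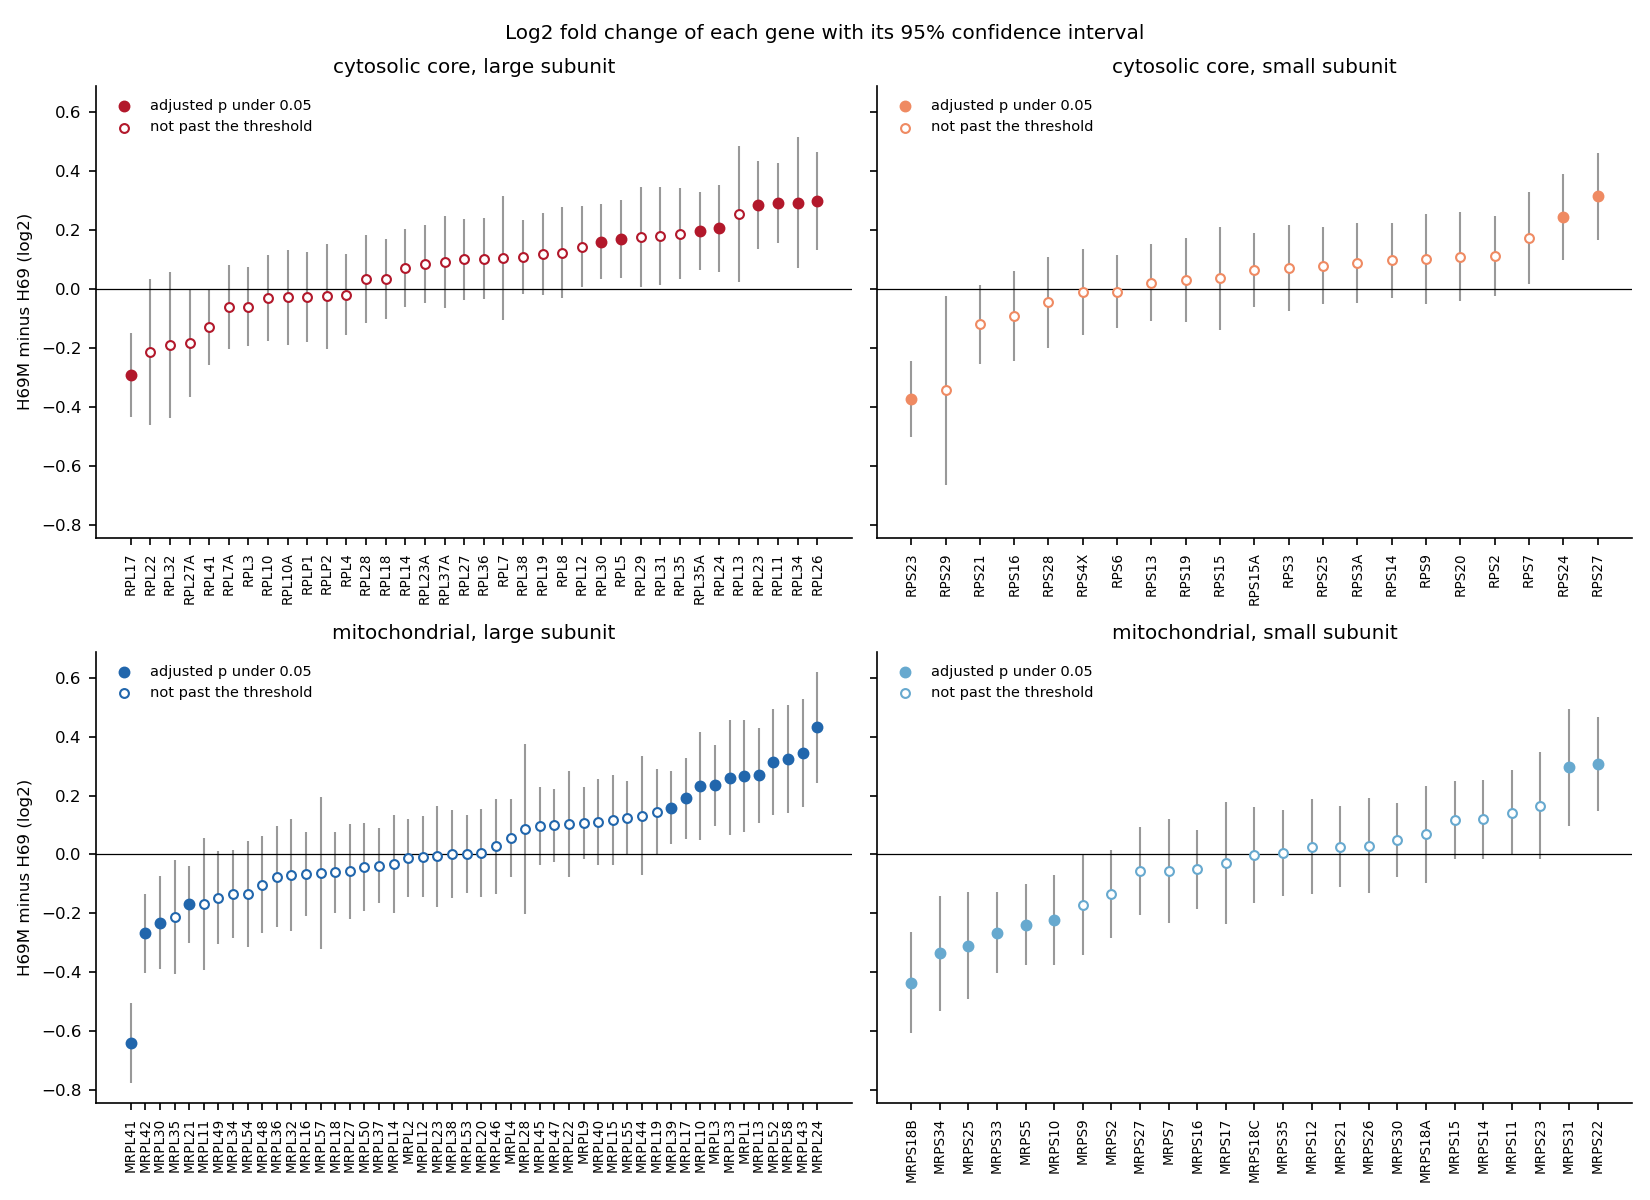
Log2 difference between H69M and H69 for each core cytosolic gene (top) and mitochondrial gene (bottom), large subunit left and small subunit right, in order of the difference, Y-linked genes left out. Bars are 95% confidence intervals and filled points passed the adjusted threshold of 0.05; RPS23 is lowest of the core genes at -0.37, and MRPL41 lowest of the mitochondrial genes at -0.64.

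Ribosomal protein genes have many processed copies in the genome, and the platform assigns some probe sets to a gene although they may sit on a copy. Probe set numbers on this platform run along the chromosomes: of 18932 probe sets of other genes, 98.2% had a majority of their 20 nearest numbers on the chromosome of their own gene. This held for 72 of 74 mitochondrial genes, but for only 39 of 57 core cytosolic genes. For 12 core genes the majority lay on another chromosome, and of these 4 rose (RPS27, RPL34, RPL5 and RPL24) and 0 fell. Among the 39 core genes with a matching chromosome, 6 rose and 2 fell as deposited. Of all genes 21.0% rose and 23.2% fell, and whether calls depend on position was not tested. A match concerns the chromosome only, so a copy on the same chromosome would also match. The remaining 6 had no majority chromosome, and 0 of them rose or fell. Where a copy and its gene are nearly identical, their signals cannot be told apart, so the 12 are uncertain as measures of the gene itself. For the 6 the position was not settled either.

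Members with several probe sets gave more than 1 value. RPS27 differed by 0.31 on the brighter probe set and by 0.49 on the one that matches its chromosome. RPL5 gave 0.17 and 0.17 on probe sets numbered among chromosomes 22 and 15, and 0.05 on the one among chromosome 1, where the gene lies. RPL34 gave 0.29 and 0.16. In RPL12, RPL13, RPL31, RPL7, RPS15, RPS28 and RPS3A, the probe sets of a gene had opposite signs. None of these probe sets passed the adjusted limma threshold over all probe sets. Some negative values were smaller than their standard error, such as -0.01 (SE 0.08) in RPS3A and -0.03 (SE 0.09) in RPL31. In RPL27A all 3 were below 0, from -0.48 to -0.18. In RPS9 they were 0.10 and 0.67, the latter from a dim probe set with a standard error of 0.93 (limma Benjamini-Hochberg adjusted p = 0.633), so that pair does not differ beyond its error.

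**Figure D4:**
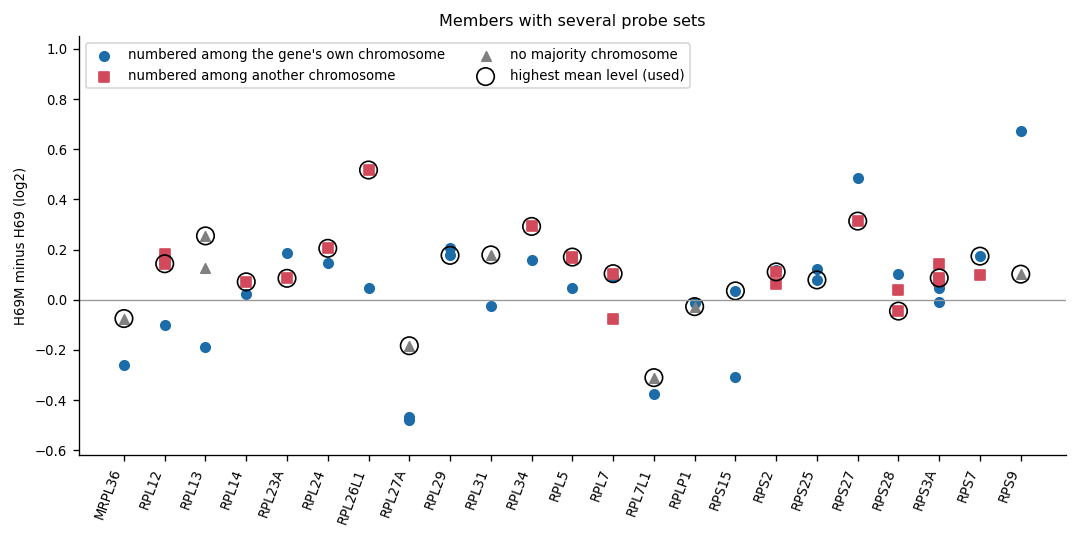
Log2 difference between H69M and H69 (y axis) for every probe set of the 23 members that have several (x axis). Circles, squares and triangles mark probe sets numbered among the chromosome of the gene, among another chromosome, or without a majority, and rings mark the probe set with the highest mean, which was used; for RPL26L1 it gives 0.52 and the other probe set 0.05.

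Of the 9 paralogs, which replace or accompany a core protein in some tissues, 2 rose and 3 fell as deposited (55.6% called, against 44.2% of all genes). The largest difference was that of RPL26L1, the paralog of RPL26, at 8.79, 8.67 and 8.62 in H69 and 9.09, 9.34 and 9.21 in H69M (0.52 ± 0.082, limma Benjamini-Hochberg adjusted p = 0.00128). That probe set is numbered among chromosome 11, and the probe set among chromosome 5, where the gene lies, differed by 0.05 (limma adjusted p = 0.583). RPL7L1, a ribosome assembly factor related to RPL7, read 10.41, 10.46 and 10.37 in H69 and 10.12, 10.06 and 10.12 in H69M, a fall of 0.31 (limma adjusted p = 0.00286). That probe set had no majority chromosome. The dimmer one among chromosome 6, where the gene lies, differed by -0.38 (limma adjusted p = 0.206 over all probe sets). RPL7 itself differed by 0.10, with an interval from -0.11 to 0.32. RPL3L, known from muscle, fell by 0.26 and RPL22L1 by 0.22, calls lost under 4 and 8 of the alternatives, while their parents RPL3 and RPL22 read -0.06 and -0.21 and did not pass. RPL22L1 fell although 10 of its 20 nearest genes were higher and 1 lower. RPL36AL rose by 0.21, lost under 7 alternatives. RPL10L and RPL39L, known from testis, differed by 0.05 and 0.00, and RPS27L, the paralog of RPS27, by -0.15 (limma adjusted p = 0.106, but 0.0172 with centred arrays).

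The 19 pseudogenes gave 0 rises and 2 falls, both at the adjusted and at an unadjusted limma p under 0.05. The called share was 10.5%, against 44.2% of all genes. Their probe sets were dim, with a median signal percentile of 32.6. The median standard error was 0.080, against 0.075 over all genes. RPS6P6 had the largest difference of all 162 genes, at 6.22, 6.12 and 6.47 in H69 and 5.73, 5.52 and 5.07 in H69M. The groups did not overlap, although the H69M arrays spread by 0.34 (SD), and the fall was 0.83 (SE 0.169, limma adjusted p = 0.0047), next to an RPS6 that differed by -0.01. RPS20P27 fell by 0.29, a call lost without H69M replicate 2 (limma adjusted p = 0.0651). RPS19BP1, a regulator of the deacetylase SIRT1 named for its binding to RPS19, fell by 0.27 (limma adjusted p = 0.0134). Of its 20 nearest measured genes on chromosome 22, 9 were lower and 1 higher, with a median of -0.22.

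**Figure D5:**
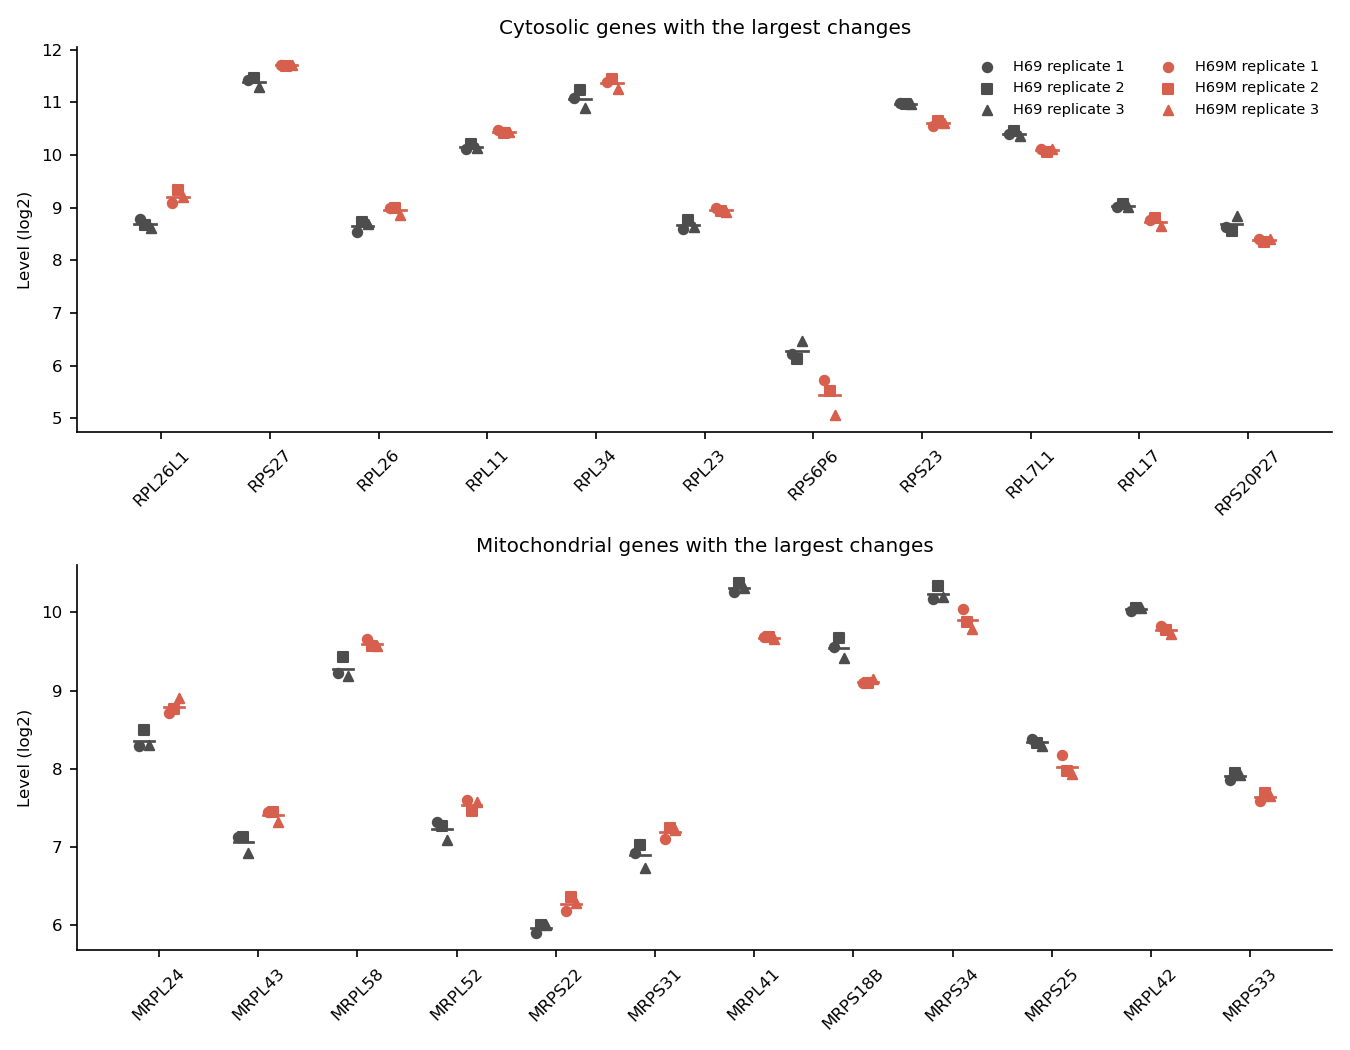
Log2 signal (y axis) on each array for the cytosolic (top) and mitochondrial (bottom) genes with the largest rises and falls past the threshold, H69 in grey and H69M in red, with a bar at each mean. No gene shown has overlapping lines; RPS6P6 falls furthest, and MRPL41 is at 10.26 to 10.38 in H69 and 9.65 to 9.69 in H69M.

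In the large mitochondrial subunit 11 of 48 genes rose (22.9%, against 21.0% of all genes) and 4 fell (8.33%, against 23.2%) as deposited. After centring on named genes 5 rose and 9 fell, and among all genes the falls then outnumbered the rises too (3110 higher, 6827 lower). MRPL24 rose most, at 8.29, 8.49 and 8.31 in H69 and 8.71, 8.77 and 8.90 in H69M (0.43 ± 0.081, limma Benjamini-Hochberg adjusted p = 0.00312). MRPL43 stood at 7.13, 7.14 and 6.92 in H69 and 7.44, 7.45 and 7.32 in H69M, a rise of 0.34 (limma adjusted p = 0.0082). MRPL58, a peptidyl-tRNA hydrolase that is built into the subunit and frees stalled ribosomes, rose by 0.33 (9.22, 9.43 and 9.18 against 9.66, 9.57 and 9.57). MRPL52 rose by 0.31, and MRPL13, MRPL1, MRPL33, MRPL3, MRPL10, MRPL17 and MRPL39 rose by 0.16 to 0.27.

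MRPL41, a large-subunit protein with no cytosolic counterpart, had the lowest adjusted p of all 162 genes. It stood at 10.26, 10.38 and 10.31 in H69 and at 9.69, 9.69 and 9.65 in H69M, a 1.56-fold lower level (log2 difference -0.64 ± 0.058 SE, limma Benjamini-Hochberg adjusted p = 6.89e-05). The gap between the lines was wider than the spread of either. Among the 17 nearest measured genes on chromosome 9, 8 were lower and 0 higher, with a median of -0.18. MRPL42 fell by 0.27 (10.01, 10.06 and 10.05 against 9.83, 9.77 and 9.72), MRPL30 by 0.23 and MRPL21 by 0.17. MRPL12, the stalk protein that also binds the mitochondrial RNA polymerase, differed by -0.01, with an interval from -0.15 to 0.13.

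In the small mitochondrial subunit 2 of 25 genes rose (8.0%, against 21.0% of all genes) and 6 fell (24.0%, near the 23.2% of all genes) as deposited. Under the other scalings 1 rose and 8 fell, 1 rose and 7 fell, and 2 rose and 5 fell, and among all genes falls also outnumbered rises except with centring over all probe sets. MRPS18B, 1 of 3 MRPS18 paralogs, stood at 9.56, 9.67 and 9.42 in H69 and 9.10, 9.10 and 9.15 in H69M, a fall of 0.43 (SE 0.075, limma Benjamini-Hochberg adjusted p = 0.00198). Its relatives MRPS18A and MRPS18C differed by 0.07 and 0.00 and did not pass. MRPS34 fell by 0.33 (10.17, 10.34 and 10.20 in H69, 10.04, 9.88 and 9.79 in H69M), MRPS25 by 0.31 and MRPS33 by 0.26. MRPS5 and MRPS10 fell by 0.24 and 0.22. Of the genes near MRPS33 on chromosome 7, 10 of 20 were lower and 3 higher. MRPS22 rose by 0.31 from dim readings of 5.90 to 6.01 in H69 to 6.18, 6.36 and 6.29 in H69M, and MRPS31 by 0.30, lost under 6 alternatives. MRPS12, a protein of the decoding centre, differed by 0.03, with an interval from -0.14 to 0.19. The gene-centred medians of the large minus the small subunit were -0.024, -0.027 and -0.026 in H69 and 0.039, 0.055 and -0.022 in H69M, so the H69M arrays lay above H69, replicate 3 only just. The plain medians of the log2 signal went the other way, with large minus small at 0.43, 0.39 and 0.18 in H69 and 0.22, 0.26 and 0.20 in H69M, and overlapped, so no direction is given.

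The other genes of mitochondrial translation were counted from fixed lists, beside 21.0% higher and 23.2% lower among all genes. Of 5 mitochondrial ribosomal proteins listed for their other names (MRPL58 is one), 2 were higher and 1 lower: DAP3, a GTP-binding protein of the small subunit, rose by 0.21 and PTCD3 fell by 0.18, lost under 5 and 7 alternatives. Of 29 translation factors and mitochondrial tRNA synthetases 3 were higher (10.3%) and 8 lower (27.6%), among them the alanyl-tRNA synthetase AARS2, which fell by 0.45, the isoleucyl-tRNA synthetase IARS2, which rose by 0.34, and TACO1, an activator of COX1 translation, which rose by 0.38. Of 23 assembly factors 3 were higher and 2 lower (21.7% called, against 44.2% of all genes): RBFA, which matures the small subunit, fell by 0.37, the rRNA methyltransferase TFB1M fell by 0.25, and YBEY rose by 0.31.

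Assembly of the cytosolic ribosome was measured through 70 biogenesis genes, of which 15 were higher and 14 lower, a called share of 41.4% that is near the 44.2% of all genes. The median absolute log2 difference was 0.16, against 0.19 over all genes. TAF1A, a subunit of the RNA polymerase I selectivity factor, rose by 0.75 (6.29, 6.48 and 6.49 in H69, 7.09, 7.29 and 7.12 in H69M). RIOK1, a kinase of late small-subunit maturation, fell by 0.73 (9.78, 9.99 and 9.88 against 9.20, 9.17 and 9.09), and MDN1, the ATPase that strips factors from large-subunit precursors, fell by 0.68. Of 18 translation factors and other transcripts listed with a TOP tract 3 were higher and 4 lower (38.9% called, against 44.2% of all genes). VIM, the intermediate filament vimentin and a mesenchymal marker, rose by 6.74, HNRNPA1 fell by 0.40 and EIF3L by 0.28, while the elongation factors EEF1A1 and EEF2 differed by 0.00 and -0.08.

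Of 25 regulators of translation and ribosome synthesis 2 were higher and 9 lower (44.0% called, against 44.2% of all genes). MYC, a transcription factor that drives ribosome synthesis, rose by 2.11, from 6.34, 6.43 and 6.32 in H69 to 8.34, 8.53 and 8.56 in H69M. Its paralog MYCN stood at 12.58, 12.60 and 12.42 in H69 and fell by 0.93 to 11.82, 11.47 and 11.52. DEPTOR, an inhibitor of mTOR, fell by 1.64, and PPARGC1A, a coactivator of mitochondrial biogenesis, by 1.42. MDM2, the ubiquitin ligase bound by free RPL5 and RPL11, fell by 0.76 (limma Benjamini-Hochberg adjusted p = 2.25e-05). These named differences, among the largest of the list, exceed every difference seen in a core ribosomal protein gene. Over all 25 regulators the median absolute log2 difference was 0.14, against 0.11 in the core genes. The part of the regulators in the ribosomal values was not tested.

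H69 and H69M arrays were fully separated in 30 of 58 core cytosolic genes (24 higher and 6 lower in H69M) and in 36 of 74 mitochondrial genes (21 higher and 15 lower), shares of 51.7% and 48.6% against 55.8% of all genes. Among genes at or above the median signal the share was 70.8%, and among the other genes in the brightest 10% it was 71.1%, so both sets lay below these shares. The directions shift with the scaling of the arrays as described above.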

How the data were processed

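RNA from both lines was hybridised to Affymetrix whole-transcript arrays after amplification and biotin labelling, per the labels' protocols. The deposited values are log2 signals per probe set, which the authors made with RMA according to the submitters' processing notes. These notes also name limma, and give no versions. Neither the RMA software nor a genome build is named (not given in the sources used here). RMA values carry no detection call and can understate folds from dim signals.

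Of 32321 probe sets, 19158 had 1 symbol in the platform annotation, 1388 had several and 11775 were not listed. For 18404 genes the probe set with the highest mean was used. H69M was compared with H69 by two-sided tests in limma 3.58.1 (R 4.3.3), using lmFit with group as the only term and eBayes without trend, with p-values adjusted over all genes by the Benjamini-Hochberg method at 0.05. Tables and plots were made in Python 3.11.15 with pandas 2.3.3, numpy 2.4.6 and matplotlib 3.10.9. The code was tested on simulated data. The named genes were the up to 6 largest rises and 6 largest falls past the threshold in each set, the paralogs with their parents, fixed members and up to 3 genes from each pathway list. RPS29, RPL24, RPL30, RPL35A, RPS24, RPS19BP1, MRPS18A, MRPS18C, MYCN, MDM2, EEF1A1, EEF2, the remaining mitochondrial genes past the threshold and the members with several probe sets were named after their values were seen. Neighbours were the 10 nearest measured genes that are no members on each side in RefSeq order, and promoters (GRCh38.p14) were matched by gene for 49 of 58 core and 66 of 73 mitochondrial genes.

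The members and lists were chosen with earlier results of these data known. The labels do not say that replicates were separate cultures, so p-values reflect array-to-array spread alone, which could be technical, and having few arrays limits precision. The alternatives tried were a block on replicate number, 3 other scalings, filters on dim genes, other variance models, array weights, other probe set rules, the core set alone and each array left out. The centring over all probe sets and the count of members by probe set position were added after seeing the data.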

Additional observations from a re-analysis of the deposited data

Results flagged for a closer look

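Probe sets that list several genes were outside the comparison, and 50 of them list a ribosomal protein symbol. Tested among all 32321 probe sets, 8 of the 50 were higher in H69M and 3 lower. The called share over all probe sets was not counted, and in the fit over genes 21.0% were higher and 23.2% lower. The median log2 difference of the 50 was 0.04. The highest was shared by H19, a long non-coding RNA, and RPS12, with means of 8.90 and 10.39 in the lines, a rise of 1.49 (Benjamini-Hochberg adjusted p = 0.000986 by limma). The lowest, at -0.61, was shared by RPL7A and the small nucleolar RNAs SNORD36A and SNORD36C. Which of the listed genes such a signal belongs to was not tested.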

How the results depend on the processing

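Results for named genes kept their direction and their side of the threshold in 947 comparisons with an alternative, lost the call in 59, gained it in 4 and reversed in 0. Many of these genes were named for large changes, which makes a kept call likely. Of the 21 cytosolic members called, 11 (without H69M replicate 2) to 21 (robust eBayes) kept the call. Of the 23 mitochondrial members called, 13 (without H69 replicate 1) to 23 (robust eBayes) kept it. Centring each array on its median over named genes gave 5 higher and 20 lower cytosolic members (median -0.0513), 4 higher and 10 lower core genes, 6 higher and 18 lower mitochondrial members (median -0.0881) and 6827 lower genes in all. Quantile normalization gave 6 higher and 6 lower core genes and 7 higher mitochondrial members. Without genes below the median level, 16 core genes were higher and the cytosolic median was 0.0790; eBayes with trend also gave 16. Admitting probe sets with several symbols gave 19 higher cytosolic members. The core set alone had 3 lower genes and a median of 0.0822. With probe sets numbered outside the chromosome of their gene left out, 6 core genes and 7 cytosolic members were higher.

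Leaving out 1 array in turn gave 5 to 12 higher and 5 to 10 lower cytosolic members (median 0.0341 to 0.0656), 4 to 11 higher and 3 to 4 lower core genes, 6 to 10 higher and 6 to 9 lower mitochondrial members (median -0.0153 to 0.0467), and 3318 to 3628 higher and 3521 to 4450 lower genes in all. The lowest counts of higher core genes came without H69 replicate 1 (4), H69M replicate 2 (5) and H69 replicate 3 (6).

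With the replicate number as a block, 9 cytosolic members were higher and 7 lower, 9 mitochondrial members higher and 8 lower, and 3617 genes higher and 4021 lower in all. Deviations of same-numbered arrays correlated at 0.02, 0.01 and 0.01, and not every array correlated best with its own number. No pairing by number was seen, but correlations over all genes, with few arrays, cannot exclude one. The number of arrays and the scaling limit what differences near 0.1 can show.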
